A study of Mus musculus with 9 samples.

Results

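Type I interferon response genes are the antiviral genes that cells switch on after sensing interferon. Here they are 36 named genes, chosen by symbol from a deposited table of 55401 genes, and each of the 36 was found in it. They were followed in bulk RNA from tissue around a brain infarct in wild-type mice of a strain that the labels do not name. Photothrombosis (PT) models stroke by lighting a dye in the blood until cortical vessels clot. At day 28, 3 groups of 3 libraries were compared: PT mice given Pushen, a commercial drug preparation dissolved in water, by gavage from 24 h after surgery; PT mice given water; and sham-operated mice given water. Labelled doses were 391 mg/kg, 392 mg/kg and 393 mg/kg, 1 Pushen library each. Numbers that differ by 1 from library to library may not be true doses, and the 3 libraries were pooled as a single group. No label says that each library is a different mouse, so a p-value reflects the spread of these libraries alone, and that spread may be technical.

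Interferons alpha and beta bind a receptor made of Ifnar1 and Ifnar2, and the kinases Jak1 and Tyk2 then activate STAT proteins, Stat2 among them. With Irf9 these form a transcription factor that binds the interferon-stimulated response element (ISRE) in promoters of the response genes. Their products sense viral nucleic acid, degrade or mask viral RNA, block entry and release of virus, and damp the signal. In brain, microglia, infiltrating leukocytes, astrocytes and vascular cells can all mount this response.

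The deposited counts summed to between 57437342 and 73499628 in Pushen libraries, 64482908 and 75100133 in PT libraries, and 66775462 and 72646409 in sham libraries. Low counts piled up at multiples of 4, with 14060 values of exactly 4 over all genes and libraries, against 5142 values of 3 and 2709 values of 5. Whether the totals equal the number of sequenced fragments was not tested, and counts below are given as deposited. The labels call the tissue brain while their extraction protocol speaks of retinas, and 0 of 7 retina markers passed the expression filter. Neuronal markers, 7 in number, summed to between 785 and 984 FPKM in Pushen, 723 and 916 FPKM in PT, and 1073 and 1230 FPKM in sham libraries. Levels are FPKM, a unit that corrects for gene length and sequencing depth and can be compared between genes, and libraries 1 to 3 of a group are always listed in that order. Differences are log2 fold changes ± SE from edgeR's quasi-likelihood test, called at an adjusted p under 0.05. The test covered 16740 genes whose mean FPKM over the 9 libraries reached 0.5.

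Promoter sequence is shown first, since the response element is where the pathway meets its genes. RefSeq promoter entries of build GRCm38.p6, which run from 250 bases before a gene's start to 50 bases after it, were found for 24 of the 36 genes. The ISRE core was searched on both strands as GAAA, any 2 bases, then GAAA. It was present in 13 of the 24 genes (54.2%), against 1079 of 27025 genes with an entry (3.99%). With a C required after it, as is common in this element, it was present in 11 of 24 genes (45.8%), against 0.944% of all genes. Counting only bases before the start left 9 of 24 genes (37.5%), against 3.46% of all genes. The palindrome TTCNNNGAA, the core of the gamma-activated site, was in 7 of 24 genes (29.2%), against 9.55% of all genes, and in Bst2 and Ifitm3 it overlapped the ISRE core. The 6 windows below, from genes whose values follow, show how the core can be repeated, turned round or placed beside the start. Each is 60 bases long, reads 5′ to 3′ along the gene's own strand, ends before the gene's start, and has in capitals the core matches that lie wholly inside it. A further match in Ifit3 begins at -156 from the gene's start and shares only its last base with the window, which is left in lower case.
Isg15: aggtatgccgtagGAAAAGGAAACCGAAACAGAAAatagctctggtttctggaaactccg
Bst2: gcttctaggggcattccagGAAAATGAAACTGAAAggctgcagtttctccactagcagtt
Oas1a: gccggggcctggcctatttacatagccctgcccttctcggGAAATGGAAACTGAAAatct
Ifit1: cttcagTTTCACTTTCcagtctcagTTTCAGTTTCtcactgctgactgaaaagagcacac
Ifit3: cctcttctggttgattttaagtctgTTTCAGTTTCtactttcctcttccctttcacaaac
Rsad2: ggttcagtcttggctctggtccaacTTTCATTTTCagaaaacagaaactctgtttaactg
The windows lie at chr4:156200850-156200909 (Isg15, minus strand), chr8:71537562-71537621 (Bst2, minus strand), chr5:120907526-120907585 (Oas1a, minus strand), chr19:34640779-34640838 (Ifit1, plus strand), chr19:34583382-34583441 (Ifit3, plus strand) and chr12:26456538-26456597 (Rsad2, minus strand). Isg15 carries 3 overlapping cores in a row, while Bst2 and Oas1a carry 2 each, all on the gene's strand. In Ifit1, Ifit3 and Rsad2 the core lies on the other strand and reads TTTC, any 2 bases, then TTTC, with 2 separate copies in the Ifit1 window. The 11 genes with no core in any of their entries were Oasl2, Irf7, Irf9, Dtx3l, Ifit2, Cmpk2, Samhd1, Ifi44, Ifi35, Xaf1 and Lgals3bp, and an element outside the entry would not be seen.

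The first comparison, PT against sham, asks which of these genes differed around the infarct at day 28. Of the 36 genes 35 passed the expression filter, and 33 of those 35 (94.3%) were called higher in PT, where 19.1% of all tested genes were called higher. No member was called lower, where 11.8% of all tested genes were. The median log2 fold change of the 35 was 2.64, against -0.0029 over all tested genes. In the same 33 genes every PT library lay above every sham library, a pattern seen in 29.3% of all tested genes. Cmpk2 and Ifit2 were the 2 that did not pass. The filter uses the mean of all 9 libraries, and 13 of the 35 had a sham mean under 0.5 FPKM and so entered the test through the infarct groups. Of the 22 with a higher sham mean, 20 were called higher. In bulk tissue, more cells of a type and more RNA per cell cannot be told apart.

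The nucleic acid sensors were higher in all 6 of 6 cases, with a median log2 fold change of 2.15. Zbp1, a sensor of Z-form nucleic acid that can start cell death, had 3.22, 5.02 and 2.71 FPKM in Pushen libraries, 3.14, 1.56 and 2.12 FPKM in PT libraries, and 0.04, 0.01 and 0 FPKM in sham libraries. It was close to silent in sham, with 14 counts over the 3 libraries against 1923 in PT, and the groups lay far apart. Its log2 fold change in PT against sham was 6.98 ± 0.68 (adjusted p = 0.000461), the largest of the 35, and with so few sham counts its size is imprecise. Ifi204, a DNA sensor of the HIN-200 family, had 4.94, 9.92 and 2.77 FPKM in Pushen libraries, 6.01, 2.36 and 3.55 FPKM in PT libraries, and 0.06, 0.06 and 0.06 FPKM in sham libraries. All 6 infarct libraries stood far above sham, which held 53 counts in all, and the log2 fold change in PT was 5.91 ± 0.60 (adjusted p = 0.000462). Ddx58, which encodes the RNA sensor RIG-I, had 2.54, 3.70 and 2.42 FPKM in Pushen libraries, 2.55, 1.51 and 2.33 FPKM in PT libraries, and 0.69, 0.68 and 0.65 FPKM in sham libraries. Sham libraries were nearly equal to each other and all infarct libraries were above them, at 1.60 ± 0.22 (adjusted p = 0.0013) in PT. The RNA sensor Ifih1 (MDA5) rose by 1.26 ± 0.25, its relative Dhx58 by 2.70 ± 0.52 and the RNA-activated kinase Eif2ak2 (PKR) by 1.47 ± 0.22 on the log2 scale. Ifi204 has near-identical relatives on chromosome 1 that could share its reads.

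All 3 tested oligoadenylate synthetase genes, which make the messenger that activates RNase L or resemble those that do, rose in PT with a median of 3.86. Oas1a had 5.41, 6.96 and 3.87 FPKM in Pushen libraries, 5.58, 2.47 and 3.51 FPKM in PT libraries, and 0.27, 0.14 and 0.10 FPKM in sham libraries. Its lowest infarct library was many times above its highest sham library, and the log2 fold change was 4.42 ± 0.45 (adjusted p = 0.000462) in PT. Oasl2, which carries ubiquitin-like domains, had 8.12, 12.7 and 7.79 FPKM in Pushen libraries, 7.95, 2.68 and 5.54 FPKM in PT libraries, and 0.48, 0.50 and 0.53 FPKM in sham libraries. Sham values were nearly identical and PT library 2 was the lowest infarct library, at a log2 fold change of 3.35 ± 0.38 (adjusted p = 0.000595). Oas2 rose by 3.86 ± 0.44 (adjusted p = 0.000611). Oas3 was under the expression filter and was not tested, and its values here were chosen for display after they were seen. It had 0.77, 1.82 and 0.23 FPKM in Pushen libraries, 0.82, 0.17 and 0.55 FPKM in PT libraries, and 0.02, 0 and 0.01 FPKM in sham libraries, with 1550, 868 and 18 counts over the Pushen, PT and sham libraries. With edgeR's own expression filter Oas3 was tested and called too, which gave 34 of 36 genes. Genes of the Oas1 group are near-identical copies, so how reads were split among them is uncertain.

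The 3 transcription factors of the pathway in the list rose, with a median of 1.91. Irf7, the factor that amplifies interferon production, had 6.39, 8.96 and 4.43 FPKM in Pushen libraries, 7.14, 1.70 and 4.26 FPKM in PT libraries, and 0.43, 0.42 and 0.22 FPKM in sham libraries. PT library 2 was well below the other infarct libraries yet above all sham libraries, and the log2 fold change was 3.52 ± 0.53 (adjusted p = 0.00184). Stat2 had 6.99, 9.72 and 6.96 FPKM in Pushen libraries, 10.9, 5.37 and 7.59 FPKM in PT libraries, and 3.23, 4.66 and 4.70 FPKM in sham libraries. It changed least of the called members, at 0.87 ± 0.26 (adjusted p = 0.0331), a call that was not stable. It was lost without sham library 1 (adjusted p = 0.112), sham library 2 (0.0661), sham library 3 (0.0577), PT library 1 (0.107) or PT library 3 (0.0542), with no expression filter (0.0506) and with only the 2 groups fitted (0.0512). Irf9, the DNA-binding partner of Stat2, rose by 1.91 ± 0.18 (adjusted p = 0.000449). Irf9 overlaps Rnf31 by 123 bases and Irf7 overlaps Phrf1 by 45 bases in the annotation, so some reads may be shared.

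**Figure D1:**
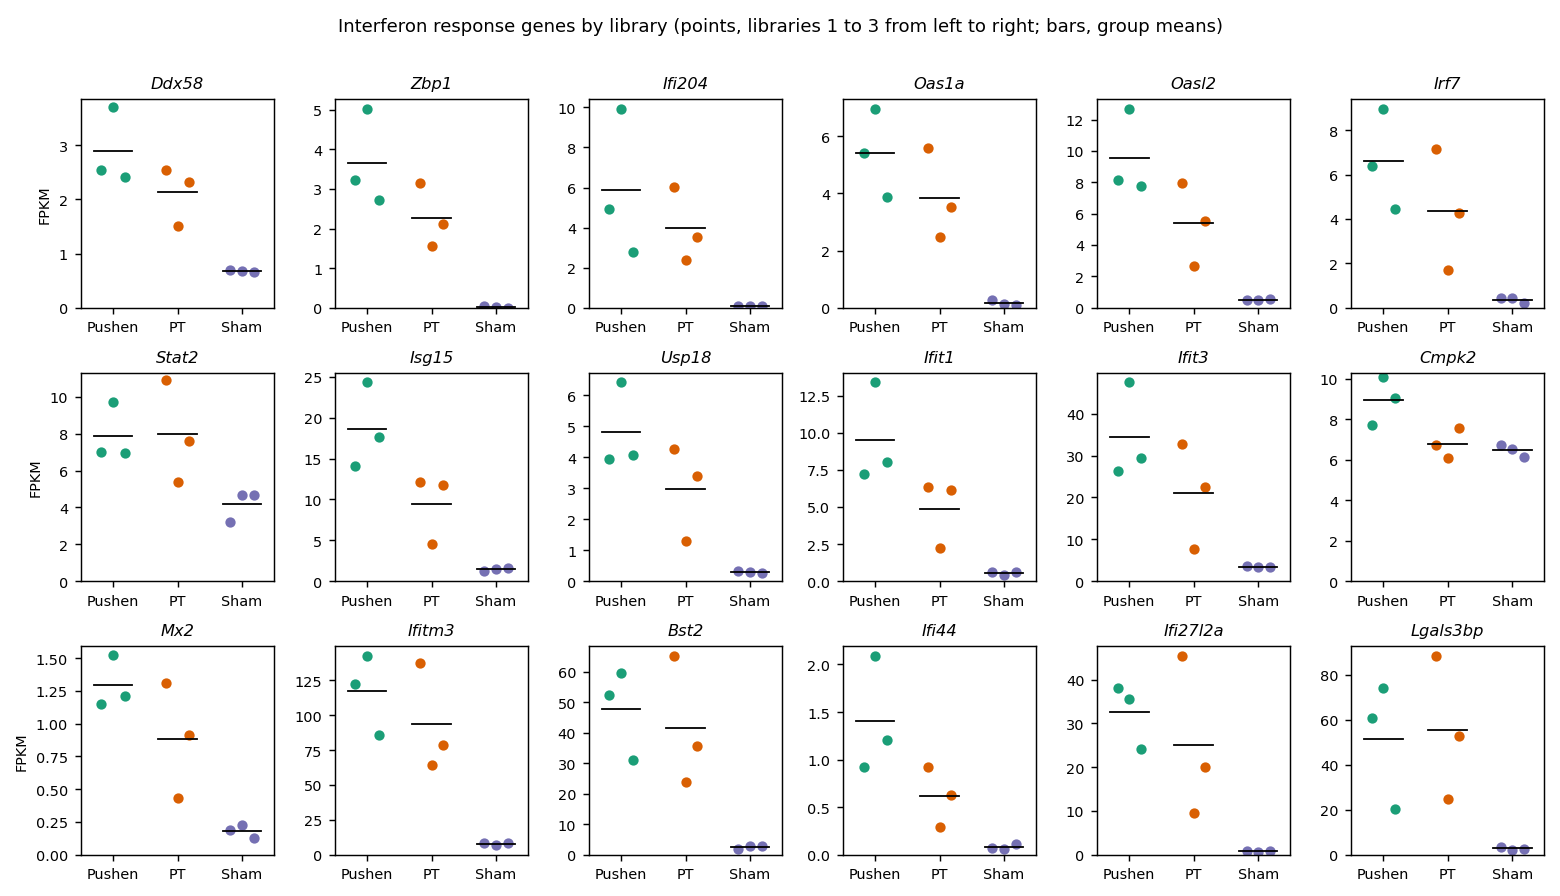
FPKM (vertical axes, from 0) of 18 interferon response genes in each library, with Pushen, PT and sham groups from left to right; points are libraries 1 to 3 and bars are group means. Sham libraries lie near 0 for most genes, PT library 2 is often the lowest infarct library, and Cmpk2 and Stat2 show the least distance between PT and sham.

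Of the modifiers and feedback genes 6 of 6 rose, with a median of 2.72. Isg15, the ubiquitin-like protein that is attached to other proteins during the response (chr4:156199455-156200796, minus strand, GRCm38), had 14.0, 24.3 and 17.6 FPKM in Pushen libraries, 12.2, 4.49 and 11.7 FPKM in PT libraries, and 1.24, 1.52 and 1.61 FPKM in sham libraries. All infarct libraries exceeded all sham libraries, with means of 18.7 ± 5.23 FPKM in Pushen, 9.47 ± 4.32 FPKM in PT and 1.46 ± 0.193 FPKM in sham (SD, n = 3 each). The PT change was 2.64 ± 0.39 (adjusted p = 0.00158). Usp18, which removes Isg15 from proteins and inhibits the interferon receptor, had 3.94, 6.42 and 4.07 FPKM in Pushen libraries, 4.25, 1.30 and 3.40 FPKM in PT libraries, and 0.33, 0.29 and 0.26 FPKM in sham libraries. Its libraries stood in the same order as those of Isg15 within each infarct group, and it rose by 3.26 ± 0.43 (adjusted p = 0.000982) in PT. The ADP-ribosyl transferase genes Parp9 and Parp14 rose by 2.13 ± 0.25 and 2.79 ± 0.31, the ubiquitin ligase gene Dtx3l by 1.10 ± 0.15 and Trim30a, one of a cluster of near-identical tripartite-motif genes, by 3.08 ± 0.34. Dtx3l and Parp9, whose proteins work as a pair, lie head to head on chromosome 16 with 682 bases of overlap. Parp9 also overlaps Gm15564 by 5854 bases and Usp18 overlaps Gm44148 by 15715 bases, both on the opposite strand. Gm15564 had a mean of 1.40 FPKM over the libraries and Gm44148 of 0.23 FPKM. The sources used here do not say whether counting used strand.

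The RNA and nucleotide effectors were the group with exceptions, since 4 of 6 rose (median of the 6, 1.90). Ifit1 binds viral RNA that lacks a methyl mark of the host cap. It had 7.20, 13.4 and 8.01 FPKM in Pushen, 6.31, 2.21 and 6.12 FPKM in PT, and 0.62, 0.44 and 0.65 FPKM in sham libraries. Infarct libraries were all above sham and the log2 fold change in PT was 3.03 ± 0.43 (adjusted p = 0.00137). Ifit3, its binding partner, had 26.4, 47.6 and 29.5 FPKM in Pushen libraries, 32.8, 7.79 and 22.4 FPKM in PT libraries, and 3.55, 3.34 and 3.39 FPKM in sham libraries. It was the most abundant of the group in the infarct libraries and rose by 2.56 ± 0.46 (adjusted p = 0.00409), and reads of its near-identical copy Ifit3b may have been counted with it. Rsad2, which encodes viperin, an enzyme that makes a chain-terminating nucleotide, rose by 2.41 ± 0.36 (adjusted p = 0.00161), and Samhd1, which depletes nucleotides, rose by 1.39 ± 0.20 (adjusted p = 0.00149).

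Cmpk2, a mitochondrial nucleotide kinase gene, had 7.69, 10.1 and 9.02 FPKM in Pushen libraries, 6.72, 6.07 and 7.54 FPKM in PT libraries, and 6.73, 6.51 and 6.14 FPKM in sham libraries. Its PT and sham libraries overlapped and the difference was 0.01 ± 0.12 (adjusted p = 0.955). It lies 12751 bases from Rsad2 on chromosome 12, and these neighbours thus had log2 fold changes of 0.01 ± 0.12 and 2.41 ± 0.36 in the same tissue; the difference between them was not tested. Cmpk2 stood between 6.14 and 6.73 FPKM in sham, where Rsad2 stood between 0.33 and 0.36 FPKM. Ifit2, a relative of Ifit1, had 7.39, 16.2 and 7.53 FPKM in Pushen libraries, 0.32, 4.44 and 6.26 FPKM in PT libraries, and 3.59, 3.46 and 3.21 FPKM in sham libraries, values chosen for display after they were seen. PT library 1 held 102 counts of it while the other 2 PT libraries were above sham, and the fitted difference was 0.05 ± 0.77 (adjusted p = 0.97). Its sign turned negative in several other fits, and without PT library 1 and Pushen library 2 it was 0.60 and passed (adjusted p = 0.0399).

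All 4 GTPase and membrane restriction genes rose, with a median of 3.58. Ifitm3, a membrane protein that blocks fusion of virus in endosomes (chr7:141009586-141010770, minus strand, GRCm38), had 123, 143 and 86.0 FPKM in Pushen libraries, 138, 64.0 and 79.0 FPKM in PT libraries, and 8.74, 7.07 and 8.22 FPKM in sham libraries. It was the most abundant of the 36 in the infarct groups, no infarct library came near sham, and it rose by 3.49 ± 0.31 (adjusted p = 0.000446). Bst2, or tetherin, which holds budding virus at the cell surface, had 52.2, 59.7 and 31.0 FPKM in Pushen libraries, 65.1, 23.7 and 35.7 FPKM in PT libraries, and 1.97, 2.87 and 2.87 FPKM in sham libraries. Its infarct libraries varied widely but stayed apart from sham, at 3.95 ± 0.41 (adjusted p = 0.000489). Mx2, a dynamin-like GTPase gene, had 1.15, 1.52 and 1.21 FPKM in Pushen libraries, 1.31, 0.43 and 0.91 FPKM in PT libraries, and 0.19, 0.23 and 0.13 FPKM in sham libraries. PT library 2 was the lowest infarct library and the rise was 2.16 ± 0.39 (adjusted p = 0.00425). Mx1 rose by 3.68 ± 0.68 (adjusted p = 0.00458); many inbred mouse strains carry a defective copy, and the deposited table annotates it as a polymorphic pseudogene.

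Of the other induced genes 7 of 7 rose, with a median of 2.37. Ifi27l2a had 38.1, 35.5 and 24.2 FPKM in Pushen libraries, 45.4, 9.54 and 20.1 FPKM in PT libraries, and 0.91, 0.64 and 0.76 FPKM in sham libraries. PT library 1 was the highest and PT library 2 the lowest of the infarct libraries, all far from sham, and the log2 fold change was 4.92 ± 0.58 (adjusted p = 0.00065), or 30.3-fold. Lgals3bp, a secreted galectin-binding glycoprotein, had 60.6, 74.0 and 20.2 FPKM in Pushen libraries, 88.4, 25.0 and 52.8 FPKM in PT libraries, and 3.49, 2.24 and 2.70 FPKM in sham libraries. Pushen library 3 was the lowest infarct library for it, and it rose by 4.24 ± 0.59 (adjusted p = 0.00126) in PT. Ifi44 had 0.92, 2.09 and 1.21 FPKM in Pushen libraries, 0.92, 0.29 and 0.63 FPKM in PT libraries, and 0.07, 0.06 and 0.11 FPKM in sham libraries. It was among the least abundant of the list and rose by 2.87 ± 0.49 (adjusted p = 0.00307), a call lost with limma on log2(FPKM + 1) (adjusted p = 0.0593). Ifi27 rose by 1.84 ± 0.22, Ifi35 by 2.37 ± 0.23, the apoptosis-linked Xaf1 by 1.34 ± 0.27 and the receptor chaperone gene Rtp4 by 2.23 ± 0.42 on the log2 scale. Ifi27 and Ifi27l2a are neighbours of related sequence, 1927 bases apart on chromosome 12. Rtp4 overlaps Masp1 by 525 bases on the opposite strand and Gm45338 by 39791 bases on its own strand. Their mean levels over the libraries were 1.41 and 0.12 FPKM.

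**Figure D2:**
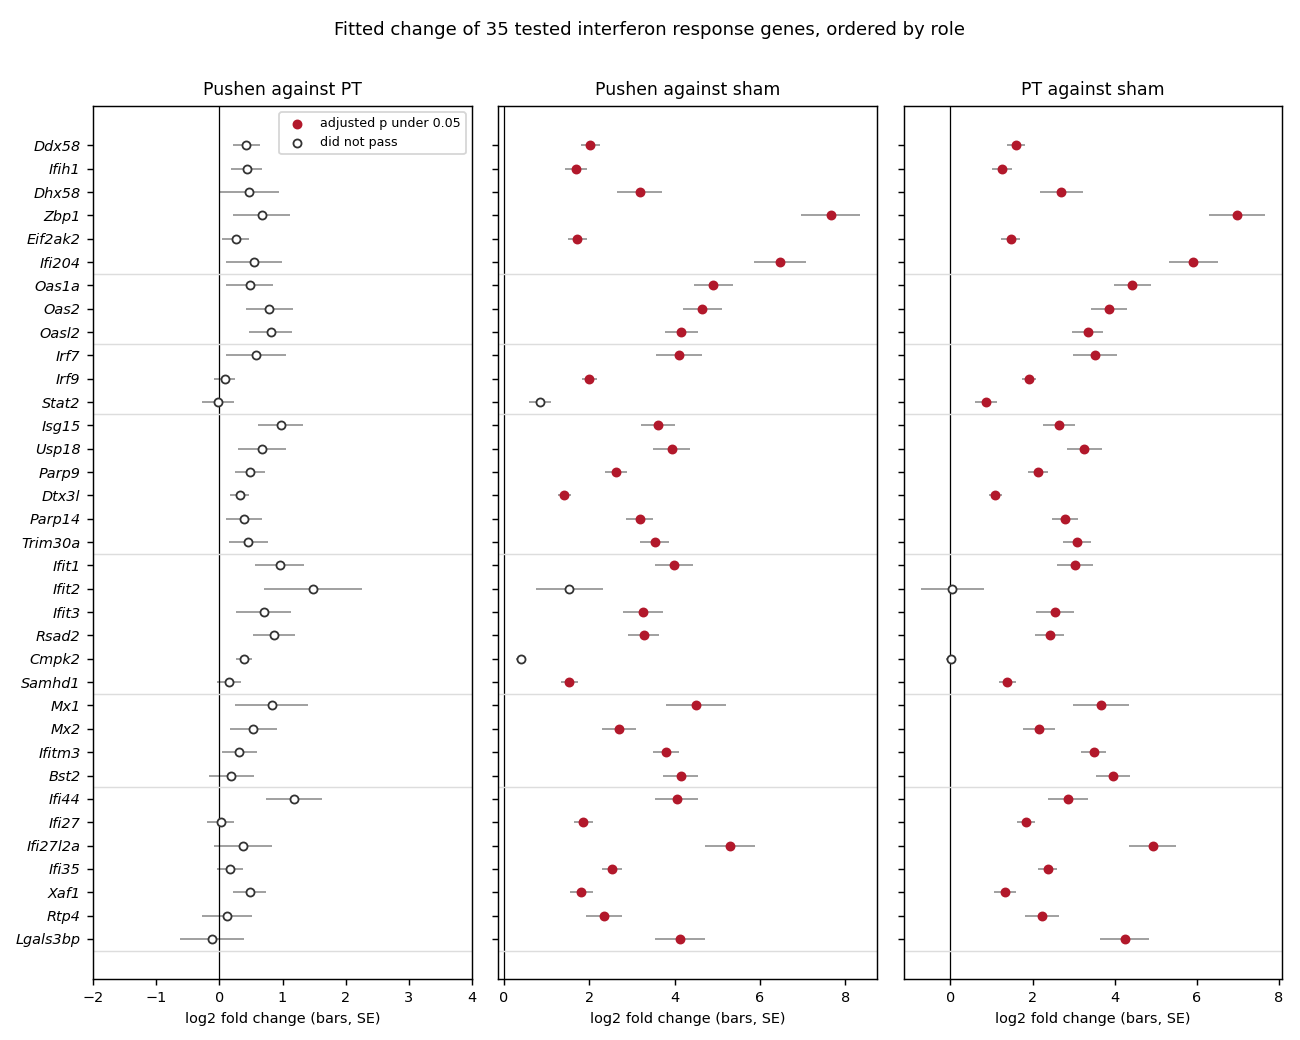
Log2 fold change (horizontal axes; bars, SE) of the 35 tested genes, ordered by role, for Pushen against PT, Pushen against sham and PT against sham; filled points passed an adjusted p of 0.05 and open points did not. Nearly all points are filled against sham, while none is in Pushen against PT, where 33 of 35 lie right of 0.

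The genes that make and carry the interferon signal were read from a list of 51 genes that are not among the 36, of which 39 were tested. In PT 24 of the 39 were higher and 2 lower than in sham, where 19.1% and 11.8% of all tested genes were, with a median log2 fold change of 1.11. None of the 10 listed interferon genes reached the expression filter. Ifnb1, the first interferon made in most cells, had 0 counts in all 9 libraries, as did Ifna1, Ifna4, Ifna5, Ifnl2 and Ifnl3. Ifna2 had 8 counts in Pushen library 2, Ifnk 4 in sham library 3 and Ifne 4 in sham library 1, each with 0 elsewhere. Ifng, the type II interferon of T and NK cells, had 4, 4 and 0 counts in Pushen libraries, 14, 4 and 4 counts in PT libraries, and 0 counts in each sham library. Counts this low show neither the absence of interferon nor a difference between the groups.

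Of 5 tested receptor genes 3 rose. Ifnar1, a subunit of the type I receptor, had 8.82, 8.96 and 7.37 FPKM in Pushen libraries, 4.73, 8.66 and 9.52 FPKM in PT libraries, and 6.78, 5.93 and 6.22 FPKM in sham libraries. Its PT and sham libraries overlapped, at 0.22 ± 0.22 (adjusted p = 0.492). Ifnar2, the other subunit, had 8.77, 8.55 and 5.55 FPKM in Pushen libraries, 10.02, 8.78 and 7.10 FPKM in PT libraries, and 4.51, 3.40 and 3.85 FPKM in sham libraries. All PT libraries exceeded sham and it rose by 1.08 ± 0.20 (adjusted p = 0.00458). Il10rb, shared by the receptors for lambda interferons and interleukin 10, rose by 1.80 ± 0.25, and Ifngr1, of the interferon gamma receptor, by 1.51 ± 0.26.

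Of 9 kinases and transcription factors 5 rose. Irf8 and Irf5, factors of myeloid cells, rose by 2.94 ± 0.32 and 2.54 ± 0.25, and Irf1 by 1.46 ± 0.17. Upstream of interferon production 9 of 13 rose, among them Unc93b1, the carrier of endosomal Toll-like receptors, by 2.99 ± 0.27, the adaptor Myd88 by 1.71 ± 0.17 and the kinase gene Ikbke by 2.63 ± 0.31. The Isg15-activating enzyme gene Uba7 rose by 2.19 ± 0.34 and the conjugating enzyme gene Ube2l6 by 1.43 ± 0.16, 2 of 3 tested in that step. Among 4 nucleases and RNA editors, the exonuclease gene Isg20 rose by 2.56 ± 0.35 and the adenosine deaminase gene Adar fell by 0.30 (adjusted p = 0.0286). Of 5 inhibitors 4 rose, including Ptpn6 by 2.87 ± 0.26, Socs3 by 2.70 ± 0.39 and Socs1 by 1.41 ± 0.31, while Pias1 was lower at -0.32 ± 0.09 (adjusted p = 0.031).

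The infarct libraries of a group differed from each other far more in these genes than over all tested genes, which were not matched to them in level. The median SD between libraries on the log2(FPKM + 0.1) scale was 0.417 for the 35 genes in Pushen, 0.574 in PT and 0.169 in sham, against 0.148, 0.185 and 0.123 over all tested genes. Most of the genes had the same highest and lowest libraries. PT library 1 was the highest PT library in 33 of 35 genes and PT library 2 the lowest in 32. Pushen library 2 was the highest Pushen library in 33 and the highest of all 6 infarct libraries in 29, while PT library 2 was the lowest of the 6 in 31. The mean level of the 35 above the sham mean was 2.82, 3.36 and 2.58 in Pushen libraries, 2.81, 1.79 and 2.49 in PT libraries, and 0.05, -0.03 and -0.01 in sham libraries. These differences are on the log2(FPKM + 0.1) scale. On that scale choroid plexus markers ranged more widely, from 1.52 to 4.02 in Pushen and from 1.24 to 3.88 in PT libraries. Monocyte and macrophage markers ran from 2.53 to 3.87 in Pushen but only from 3.63 to 3.95 in PT libraries.

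Markers of other cells moved with the groups and with some libraries. The counts of markers called in PT against sham stand beside 19.1% of all tested genes called higher and 11.8% called lower. Of 7 tested monocyte and macrophage markers 6 were higher in PT than in sham. The 9 listed markers summed to between 119 and 669 FPKM in Pushen, 513 and 622 FPKM in PT, and 4.77 and 7.21 FPKM in sham. On the log2(FPKM + 0.1) scale the mean level of the 7 above the sham mean was 3.79, 3.87 and 2.53 in Pushen libraries, 3.95, 3.80 and 3.63 in PT libraries, and -0.02, -0.30 and 0.31 in sham libraries. Pushen library 2 and PT library 1 were thus the highest of their groups, as for the interferon response genes. Pushen library 3 was the lowest infarct library. PT library 2 came second in PT at 3.80, and its sum of 622 FPKM was the highest in PT. For the interferon response genes PT library 2 was the lowest infarct library, at 1.79. Homeostatic microglia markers were higher in PT in 7 of 10 cases, with sums of 126 to 184 FPKM in Pushen, 151 to 231 FPKM in PT and 59.5 to 80.7 FPKM in sham. Choroid plexus markers, higher in PT in 3 of 6 tested cases, summed to between 29.0 and 628 FPKM in Pushen, 22.4 and 547 FPKM in PT, and 3.12 and 18.5 FPKM in sham, and peaked in Pushen library 2 and PT library 1. Those are the libraries where the interferon response genes were highest in their groups. Astrocyte markers also had their highest mean level there, at 1.65 in PT library 1 and 1.39 in Pushen library 2. So did endothelial markers, at 0.92 and 0.69, and homeostatic microglia markers, at 1.01 and 0.73, with Pushen library 1 also at 0.73. In PT, T and NK cell, B and plasma cell and neutrophil markers were highest in library 2, at 2.54, 4.64 and 1.36. In Pushen these 3 lists were also highest in library 2, at 2.29, 5.08 and 1.37, as the interferon response genes were. Striatal neuron markers summed to 101, 101 and 75.4 FPKM in Pushen libraries, 535, 128 and 71.5 FPKM in PT libraries, and 66.1, 65.6 and 74.1 FPKM in sham libraries, so that PT library 1 stood far above the rest. Of those 7 markers 3 were higher in PT than in sham, with a median log2 fold change of 1.69, and in Pushen against PT all 7 were negative, with a median of -1.48. Of these 5 had an unadjusted p under 0.05 and 0 were called. Of 3 tested markers of plasmacytoid dendritic cells, a main source of interferon alpha, 0 were higher in PT. Pacsin1, which neurons also express, was lower, with 22.9, 19.9 and 23.7 FPKM in Pushen libraries, 17.3, 21.8 and 24.1 FPKM in PT libraries, and 24.4, 29.6 and 26.7 FPKM in sham libraries. Of the list's 3 genes under the filter, Klk1 and Dntt overlapped between PT and sham. Ccr9 lay between 0.08 and 0.10 FPKM in PT libraries and between 0.02 and 0.05 FPKM in sham libraries. Cox6a2, also of the list, already stood between 7.56 and 8.59 FPKM in sham. Siglech and Bst2, also used as markers of these cells, were not in the list. Both were higher in PT, at log2 fold changes of 0.45 ± 0.15 and 3.95 ± 0.41. The list thus does not show whether plasmacytoid dendritic cells differed. B and plasma cell markers were higher in 3 of 3 tested cases and T and NK cell markers in 2 of 3. Astrocyte markers were higher in 6 of 7, oligodendrocyte markers in 5 of 6 and endothelial markers in 5 of 6, neuronal markers were lower in 5 of 7, and 0 of 2 neutrophil markers passed. The part of these cells in the interferon response values was not tested.

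**Figure D3:**
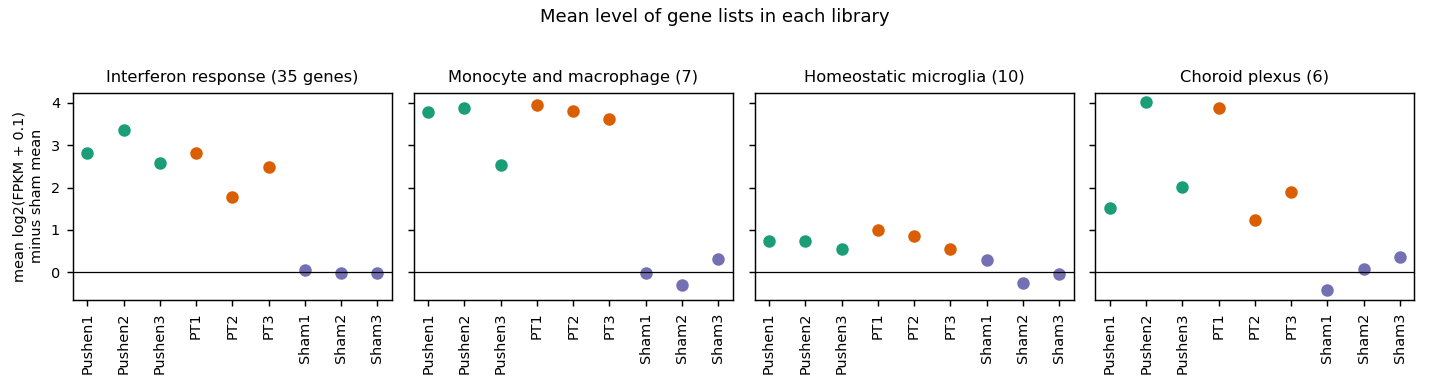
Mean log2(FPKM + 0.1) minus the sham mean (vertical axis) of 4 gene lists in each of the 9 libraries, Pushen, PT and sham from left to right; each point is 1 library and numbers in brackets are genes averaged. The interferon response genes run from 1.79 in PT library 2 to 3.36 in Pushen library 2, macrophage markers are lowest among infarct libraries in Pushen library 3, and choroid plexus markers peak in PT library 1 and Pushen library 2.

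Pushen was compared with PT to ask whether the drug altered the genes around the infarct. Of the 35 genes 0 were called in either direction, where 0% of all tested genes were called by edgeR. At an unadjusted p under 0.05, 1086 of all tested genes passed in either direction, and DESeq2 called 49 genes, none of them among the 35. The values nonetheless lay mostly to one side: 33 of 35 genes (94.3%) had a positive log2 fold change (32 with upper quartile scaling), against 48.3% of all tested genes, and the median was 0.47, against -0.0081. Because the 35 genes share libraries and an order of libraries, this count is a description of these 6 libraries. An unadjusted p under 0.05 was reached by 6 of 35 (17.1%), all higher in Pushen, where 3.03% of all tested genes passed it in that direction. In 5 of 35 (14.3%) every Pushen library lay above every PT library, against 7.25% of all tested genes.

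Those 5 genes were Isg15, Ifit1, Ifit2, Rsad2 and Cmpk2. In Isg15 the lowest Pushen library, at 14.0 FPKM, stood just above the highest PT library, at 12.2 FPKM. The log2 fold change was 0.97 ± 0.36 (unadjusted p = 0.0239, adjusted p = 0.707), or 1.96-fold. In Ifit1 the nearest libraries were 7.20 FPKM in Pushen and 6.31 FPKM in PT, and the log2 fold change was 0.95 ± 0.39 (unadjusted p = 0.038, adjusted p = 0.707). Rsad2 had 2.63, 5.5 and 2.55 FPKM in Pushen libraries, 2.42, 1.24 and 2.18 FPKM in PT libraries, and 0.36, 0.36 and 0.33 FPKM in sham libraries, values chosen for display after they were seen. The gap between its nearest Pushen and PT libraries was small, and the log2 fold change was 0.86 ± 0.33 (unadjusted p = 0.0299, adjusted p = 0.707). Cmpk2, which did not differ detectably between PT and sham, had the smallest p of the 35 in Pushen, at 0.39 ± 0.12 (unadjusted p = 0.0122, adjusted p = 0.707). Its 3 Pushen libraries were the highest of the 9. Ifit2 was apart as well, at 1.49 ± 0.78 (adjusted p = 0.707), with PT library 1 far below the rest.

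Ifi44 and Oasl2 also had an unadjusted p under 0.05, with overlapping groups. Ifi44 stood at 1.18 ± 0.44 (unadjusted p = 0.0254, adjusted p = 0.707) and Oasl2 at 0.81 ± 0.34 (unadjusted p = 0.0426, adjusted p = 0.707). The oligoadenylate synthetases had a median of 0.79 and the RNA and nucleotide effectors of 0.78, the highest of the role groups. Nucleic acid sensors had a median of 0.45 and modifiers of 0.47. Zbp1 was at 0.67 ± 0.45 (adjusted p = 0.719), Ifi204 at 0.55 ± 0.45 (adjusted p = 0.745), Ddx58 at 0.43 ± 0.22 (adjusted p = 0.707) and Usp18 at 0.67 ± 0.38 (adjusted p = 0.707). GTPases and membrane genes had a median of 0.42, with Mx2 at 0.54 ± 0.37 (adjusted p = 0.72), Ifitm3 at 0.31 ± 0.28 (adjusted p = 0.76) and Bst2 at 0.19 ± 0.36 (adjusted p = 0.893). The other induced genes had a median of 0.17, with Ifi27l2a at 0.37 ± 0.46 (adjusted p = 0.831). The transcription factors had a median of 0.08, with Irf7 at 0.58 ± 0.47 (adjusted p = 0.746), Irf9 at 0.08 ± 0.17 (adjusted p = 0.897) and Stat2 at -0.02 ± 0.26 (adjusted p = 0.984). Lgals3bp, at -0.12 ± 0.51 (adjusted p = 0.956), was with Stat2 the only member with a negative value in that fit.

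The size of this difference varied with single libraries. Without PT library 2 the median log2 fold change was 0.23 and 28 of 35 genes were positive, and without Pushen library 2 it was 0.21 with 28 of 35 positive. Without PT library 1 the median was 0.84 and all 35 were positive. Without both PT library 1 and Pushen library 2 the median was 0.47 and 33 of 34 tested genes were positive, with 2 PT and 2 Pushen libraries left. Of the pathway genes that are not members, 0 of 39 passed in Pushen against PT, 18 were positive and 21 negative, and the median was -0.02. Ifnar1 stood at 0.12 ± 0.22 (adjusted p = 0.887) and Ifnar2 at -0.19 ± 0.20 (adjusted p = 0.795).

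**Figure D4:**
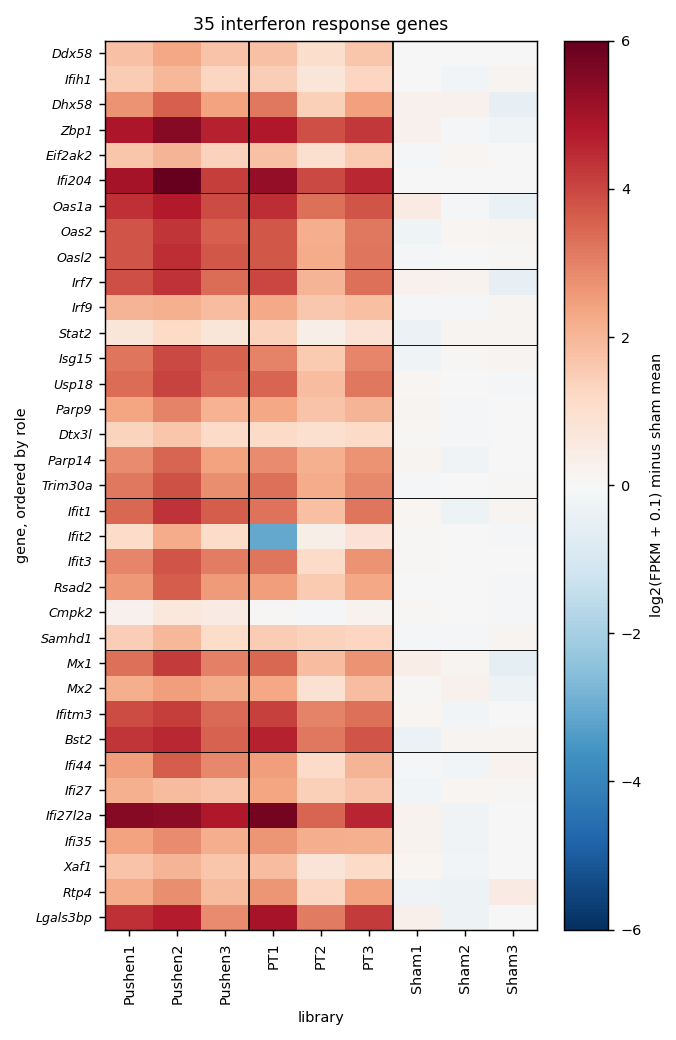
Log2(FPKM + 0.1) minus the sham mean (colour, red above sham and blue below) of the 35 tested genes (rows, ordered by role, lines between roles) in each library (columns; Pushen, PT and sham from left to right, lines between groups). The columns of PT library 2 and Pushen library 2 are the palest and darkest of the infarct columns in most rows, and Ifit2 in PT library 1 is the only strongly blue cell.

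Pushen against sham shares its libraries with both comparisons above. There 32 of 35 genes (91.4%) were called higher, where 13.5% of all tested genes were. In the other direction 0 were called lower, where 2.73% of all tested genes were. As above, 13 of the 35 had a sham mean under 0.5 FPKM and entered the test through the infarct groups, Zbp1 and Ifi204 among them. In all 35 every Pushen library lay above every sham library, against 27.2% of all tested genes. The median log2 fold change was 3.26, against -0.0148 over all tested genes. Zbp1, Ifi204 and Ifi27l2a had the largest values, at 7.65 ± 0.68, 6.46 ± 0.60 and 5.29 ± 0.58, beside 6.98 ± 0.68, 5.91 ± 0.60 and 4.92 ± 0.58 in PT. Isg15 reached 3.61 ± 0.40 (adjusted p = 0.000764), or 12.2-fold, beside 6.24-fold in PT. The 3 genes that did not pass were Stat2 at 0.85 ± 0.26 (adjusted p = 0.0571), Cmpk2 at 0.40 ± 0.12 (adjusted p = 0.0594) and Ifit2 at 1.53 ± 0.78 (adjusted p = 0.212). Stat2 passed without PT library 1 (adjusted p = 0.0236) or PT library 2 (0.0316), Cmpk2 without Pushen library 1 (0.0377) and Ifit2 without PT library 1 (0.0128). Other methods also called them: Stat2 passed with DESeq2 (adjusted p = 0.00868), with library totals as the scaling (0.0451) and with only the 2 groups fitted (0.0242). Cmpk2 passed with DESeq2 (0.0211), with library totals (0.0254) and with limma at pseudocounts of 0.1 (0.0312) and 1 (0.0342). Ifit2 passed with only the 2 groups fitted (0.0185) and without both PT library 1 and Pushen library 2 (0.0095). Of 39 tested pathway genes 21 were higher in Pushen than in sham and 0 lower, where 13.5% and 2.73% of all tested genes were.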

How the data were processed

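RNA of 9 libraries was measured, 3 each of Pushen, PT and sham, on libraries that the labels' protocols say were made with an Illumina TruSeq kit. The deposited table holds a read count per gene, not normalized, beside the authors' FPKM. Bowtie 0.12.2 and build mm8 appear in the submitters' processing notes, while 51920 of 55141 shared gene identifiers (94.2%) have the GRCm38 coordinates of GENCODE M21. The counter, and its use of strand, is not given in the sources used here. Every value column was matched to a library through its name (0 unmatched). No 2 libraries of a group held the same counts (chi-square per gene from 46.7 to 166, a value that the pile-up of low counts at multiples of 4 may raise).

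Library scaling used TMM factors, and 1 model of the 3 groups was fitted in edgeR 4.0.16 (R 4.3.3). The quasi-likelihood test was adjusted by the Benjamini-Hochberg method over 16740 genes whose mean FPKM reached 0.5. The SE was taken as the size of the log2 fold change over the root of F. The fit was also run on simulated counts with changes planted in PT, in which genes varied independently between libraries. Those counts lack the order of libraries that the members share, and the outcome is not reported here. Groups were called apart where the FPKM of their libraries did not overlap. Levels per list use a pseudocount of 0.1. Promoters are from RefSeq, build GRCm38.p6. FPKM in every library is printed for the member of each role that had the highest mean, the largest change in PT or the smallest p in Pushen against PT, and for members said to be chosen after their values were seen. Members and lists were chosen with earlier results of these data known. Alternatives were other scalings, filters and pseudocounts, DESeq2 1.42.0, limma 3.58.1, a test against 1.5-fold, 2-group fits, a replicate block and omission of libraries. The labelled doses, which may not be true ones, were not modelled. A pathway gene that the naming rule takes is not reported here.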

Additional observations from a re-analysis of the deposited data

How the results depend on the processing

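When each library was left out in turn, PT against sham had 32 to 34 called members, Pushen against PT had 0 and Pushen against sham had 32 to 34. Over the same omissions their medians ran from 2.23 to 2.98, 0.21 to 0.84 and 2.82 to 3.43. Called pathway genes ran from 20 to 27, stayed at 0, and ran from 17 to 24. Called genes among all those tested in each fit ran from 3236 to 5804, 0 to 6 and 1550 to 3668. Correlations of same-numbered libraries ran from -0.22 to 0.099, and those of libraries with different numbers from -0.10 to 0.15. Such values, taken within groups of 3, cannot settle whether replicate numbers pair the libraries. With the number as a block 0 members were called in Pushen against PT and the median was 0.47. In PT against sham Stat2 then lost its call (adjusted p = 0.0732). With limma on log2(FPKM + 1) the medians were 1.45 in PT against sham and 1.72 in Pushen against sham, a scale that shrinks low genes. A test against a 1.5-fold change called 17 pathway genes and 1387 genes in PT against sham and 999 genes in Pushen against sham. Without PT library 1 and Pushen library 2, PT against sham had 3362 called genes, Pushen against PT had 2, and the median of Pushen against sham was 2.82. In Pushen against PT 49 genes were called by DESeq2 and 1 with only the 2 groups fitted. The share of promoters with the core was 25.0% when only its reverse complement on the gene's strand was counted, against 1.96% of all genes. Among single members near 0, Cmpk2 in PT against sham turned to -0.016 with no filter and -0.0079 with edgeR's own filter. Stat2 in Pushen against PT turned to 0.028 and 0.021 with limma at pseudocounts of 0.1 and 1. Without PT library 1 and Pushen library 2, Stat2 was at 0.10 and Lgals3bp at 0.037. When each library was left out, Cmpk2 in PT against sham ranged from -0.085 to 0.091, and in Pushen against PT Stat2 ranged from -0.24 to 0.27, Lgals3bp from -0.47 to 0.39, Bst2 from -0.10 to 0.66, Ifi27l2a from -0.021 to 1.12 and Ifi204 from -0.055 to 0.98. Apart from fewer libraries or another threshold or scale, the cause was not tested.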

Other observations

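Other genes of the pathway, chosen after their values were seen, are given as values. Sting1, the adaptor of cytosolic DNA sensing, had 2.83, 2.60 and 2.20 FPKM in Pushen libraries, 4.12, 3.30 and 2.43 FPKM in PT libraries, and 0.95, 0.61 and 0.69 FPKM in sham libraries. All PT libraries were above sham, and it rose by 2.05 ± 0.24 (adjusted p = 0.000668) with edgeR's quasi-likelihood test. Cgas, the enzyme that activates Sting1, had 0.74, 0.74 and 0.61 FPKM in Pushen libraries, 0.72, 0.53 and 0.57 FPKM in PT libraries, and 0.38, 0.40 and 0.32 FPKM in sham libraries. It rose by 0.68 ± 0.19 (adjusted p = 0.0276), also with no overlap between PT and sham. Mavs, the adaptor of Ddx58 and Ifih1, rose by 1.08 ± 0.13 (adjusted p = 0.000792). Herc6, the mouse ligase for Isg15, had 2.49, 3.29 and 2.24 FPKM in Pushen libraries, 1.69, 1.93 and 2.37 FPKM in PT libraries, and 2.46, 2.29 and 2.36 FPKM in sham libraries. Its PT and sham libraries overlapped, at -0.31 ± 0.16 (adjusted p = 0.187), where the Isg15-step genes Uba7 and Ube2l6 rose.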
